A study of Mus musculus with 7 samples.

Results

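The vesicular glutamate transporters are 3 genes, Slc17a6, Slc17a7 and Slc17a8, chosen by symbol from the 55536 genes of a count table. Per the labels, RNA came from the whole brains of C57BL/6 mice on the day of birth, postnatal day 0. The age was not checked against gene levels of brains of known age. Heterozygous Setd2SRI/wt animals, in which 1 copy of Setd2 carries R2483H within the SRI domain, gave 3 libraries (below also called mutant), from 1 male and 2 females. Wild-type littermates gave 4 libraries, from 2 males and 2 females, and no animal was treated. Setd2 encodes a histone methyltransferase that marks transcribed gene bodies, and its SRI domain binds RNA polymerase II. Litters are not given per animal, and the p-values below measure the spread between these 7 libraries. A missense allele cannot be seen in gene counts, so the genotype labels were taken as given.

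Vesicular glutamate transporters load glutamate into synaptic vesicles and use the electrical and proton gradient that the vesicular proton pump builds. A neuron that contains one of them can release glutamate. In the rodent brain Slc17a6, which encodes VGLUT2, is typical of excitatory neurons of the thalamus, midbrain and hindbrain, and Slc17a7, which encodes VGLUT1, of those of the cortex, hippocampus and cerebellum. Slc17a6 is also transcribed early in life in regions that later rely on Slc17a7. Slc17a8, which encodes VGLUT3, is found in few cells, among them serotonin neurons, cholinergic interneurons of the striatum and some cortical interneurons.

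In the mm10 genome Slc17a6 (ENSMUSG00000030500) lies on the plus strand of chromosome 7 from 51622006 to 51671119. Slc17a7 (ENSMUSG00000070570) lies on the plus strand of the same chromosome from 45163949 to 45176142. Slc17a8 (ENSMUSG00000019935) lies on the minus strand of chromosome 10 from 89574020 to 89621253. No exon of the 3 genes overlaps an exon of another gene in GENCODE M21. The union of their exons holds 5399, 5392 and 4720 bases in the order Slc17a6, Slc17a7 and Slc17a8.

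The coding sequences of the 3 genes are related closely enough that it was checked whether a read could belong to several of them. Over aligned bases, Slc17a6 was 71.4% identical to Slc17a7 and 71.1% identical to Slc17a8, and Slc17a7 was 70.1% identical to Slc17a8. The longest exact run shared was 21 bases for Slc17a6 and Slc17a7, 25 bases for Slc17a6 and Slc17a8 and 17 bases for Slc17a7 and Slc17a8. Each read had 76 bases, and 0 stretches of 76 coding bases were shared exactly by any pair. The most alike stretch of 76 bases in Slc17a6 and Slc17a7, given 5′ to 3′ on the sense strand with the differing bases in capitals, held 10 differences, at coding bases 208 to 283 of Slc17a6 and 184 to 259 of Slc17a7.
Slc17a6: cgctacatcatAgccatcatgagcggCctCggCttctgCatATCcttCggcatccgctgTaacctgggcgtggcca
Slc17a7: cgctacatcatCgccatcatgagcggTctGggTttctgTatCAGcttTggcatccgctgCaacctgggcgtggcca
The closest stretch of Slc17a7 and Slc17a8, at coding bases 1348 to 1423 of Slc17a7 and 1423 to 1498 of Slc17a8, held 9 differences and is shown in the same way.
Slc17a7: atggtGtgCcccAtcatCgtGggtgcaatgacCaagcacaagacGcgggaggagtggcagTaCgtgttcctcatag
Slc17a8: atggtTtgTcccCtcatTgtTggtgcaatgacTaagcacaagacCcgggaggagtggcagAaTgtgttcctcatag
The closest stretch of Slc17a6 and Slc17a8 held 10 differences. Untranslated regions were not compared, and the treatment of reads with several matches is not given in the sources used here.

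Between 4192021 and 16064644 counts were assigned to genes in each library, and 17260 genes passed the filter on low counts, all 3 transporters among them. Markers of neurons were present in every library, with a sum over 8 genes of 6744 to 7865 CPM (counts scaled to 1000000 per library) in Setd2SRI/wt brains and 6307 to 7104 CPM in wild-type brains. The libraries differed in transcripts of the hindbrain and cord and of tissue next to the brain. The sum over 16 Hox genes, which mark the hindbrain and spinal cord, was 41.3 CPM in wild-type male 1. It was at most 0.457 CPM in each of the other libraries, so Hox transcripts were nearly absent from most of these brains. How much hindbrain each sample held was not tested. The sum over 10 pituitary markers was 14.2 CPM in Setd2SRI/wt female 1 and 30.1 CPM in wild-type female 2, and at most 5.22 CPM in each of the other libraries. Sums over markers of astrocytes (1689 to 2189 and 1953 to 2249 CPM) and retina (15.0 to 22.8 and 13.2 to 15.7 CPM) overlapped between Setd2SRI/wt and wild-type brains. So did the sum over olfactory epithelium markers (241.4 to 268.3 and 219.6 to 275.5 CPM), most of which was Gnal, a G protein gene that the striatum also expresses. Omp, the marker of mature olfactory sensory neurons, was at 6.20 and 4.27 CPM in wild-type males 1 and 2 and at most 0.868 CPM in each of the other libraries. Stoml3 did not overlap, at 0.153 to 0.731 CPM in Setd2SRI/wt brains and 0.811 to 2.76 CPM in wild-type brains. The part of these transcripts in the results was not tested.

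Slc17a7 was the most abundant of the 3 transcripts and Slc17a8 the least abundant, in every library. Over the 7 libraries Camk2a and Nrgn, of the cortical list below, averaged 2194 and 927.9 CPM. The astrocyte genes Gfap and Aqp4 averaged 175.9 and 166.4 CPM. Tubb3, a neuron marker, and Fabp7, of the astrocyte list, averaged 234.9 and 27.2 CPM. Whether these levels and this order of the transporters are those of newborn brains was not tested. Levels of different genes were compared as counts per kb of exon. Slc17a7 exceeded Slc17a6 by 6.48-fold on average, with a mean log2 ratio of Slc17a6 over Slc17a7 of -2.70 ± 0.66 (SD, n = 7; exact two-sided sign-flip permutation test, p = 0.0156). Slc17a6 exceeded Slc17a8 17.1-fold (mean log2 ratio 4.10 ± 0.74, SD, n = 7; exact permutation p = 0.0156), and Slc17a7 exceeded Slc17a8 110.9-fold (6.79 ± 0.44, SD, n = 7; exact permutation p = 0.0156). All 7 libraries had the same order, 0.0156 is the smallest p that 7 libraries allow, and the p adjusted over the 3 pairs was 0.0156 each time. These means and SDs pool the genotypes. The mean log2 ratio of Slc17a6 over Slc17a7 was -3.34 in Setd2SRI/wt brains and -2.21 in wild-type brains. That of Slc17a6 over Slc17a8 was 3.38 in Setd2SRI/wt brains and 4.63 in wild-type brains, and that of Slc17a7 over Slc17a8 was 6.72 and 6.85 in the same order. Among the 17260 tested genes, the level of Slc17a7 per kb lay above 99.0% of genes in Setd2SRI/wt brains and 98.8% in wild-type brains. That of Slc17a6 lay above 80.3% of genes in Setd2SRI/wt brains and 89.8% in wild-type brains. Slc17a8, with 26.5% and 21.7% of genes below it in Setd2SRI/wt and wild-type brains, was among the weaker transcripts that could be tested.

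The transporters were proposed as a group because Slc17a6 stood out between the genotypes, so their values in that comparison are a description, with no p given and nothing resting on a call. Slc17a6 was at 66.0 CPM in the mutant male and at 91.8 and 71.5 CPM in mutant females 1 and 2, against 137.6 and 117.1 CPM in wild-type males 1 and 2 and 137.0 and 142.1 CPM in wild-type females 1 and 2. All Setd2SRI/wt libraries lay below all wild-type libraries. The closest libraries across the genotypes were Setd2SRI/wt female 1, with an exact Poisson 95% interval of 84.6 to 99.5 CPM, and wild-type male 2, with 106.9 to 127.9 CPM. Such intervals cover counting error only. The 3 highest wild-type libraries differed by less than their intervals, as did the Setd2SRI/wt male and Setd2SRI/wt female 2. Slc17a6 averaged 76.5 ± 13.6 CPM in Setd2SRI/wt brains (SD, n = 3) and 133.4 ± 11.2 CPM in wild-type brains (SD, n = 4). The log2 fold change of Setd2SRI/wt over wild type, fitted with sex in the model, was -0.84 ± 0.12 (SE), or 0.557-fold. In whole-brain RNA, fewer cells of a type and less RNA per cell cannot be told apart.

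Slc17a7 differed in the other direction and by less. It was at 752 CPM in the mutant male and at 804 and 735 CPM in mutant females 1 and 2, against 688 and 718 CPM in wild-type males 1 and 2 and 583 and 502 CPM in wild-type females 1 and 2. The genotypes did not overlap, but the low wild-type values came from females, and the wild-type males lay close to the Setd2SRI/wt libraries. The means were 764 ± 35.8 CPM in Setd2SRI/wt brains (SD, n = 3) and 623 ± 99.3 CPM in wild-type brains (SD, n = 4), a log2 fold change of 0.35 ± 0.11 (SE). In females alone the log2 fold change was 0.50, and without the 2 libraries with pituitary transcripts, an alternative chosen after seeing the data, it was 0.20.

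Slc17a8 rested on few reads, 40, 37 and 78 counts in the Setd2SRI/wt male and Setd2SRI/wt females 1 and 2, against 85 and 13 counts in wild-type males 1 and 2 and 90 and 80 counts in wild-type females 1 and 2. This corresponded to 7.31, 5.66 and 6.15 CPM in the Setd2SRI/wt libraries and 5.32, 3.09, 5.61 and 5.23 CPM in the wild-type libraries, in the same order. The genotypes did not overlap, yet the lowest Setd2SRI/wt value and the highest wild-type value, 5.66 and 5.61 CPM, had intervals of 3.99 to 7.81 CPM and 4.51 to 6.90 CPM. These intervals overlap. The means were 6.38 ± 0.847 CPM in Setd2SRI/wt brains (SD, n = 3) and 4.81 ± 1.16 CPM in wild-type brains (SD, n = 4), with a log2 fold change of 0.32 ± 0.22 (SE). Without the Setd2SRI/wt male it was 0.13.

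Across all 17260 genes the genotypes did not overlap for 7.91%, with 4.08% lower and 3.83% higher in Setd2SRI/wt brains. Among the transporters the genotypes did not overlap for 3 of 3, Slc17a6 lower and the other two higher. At an adjusted p under 0.05, the quasi-likelihood test of edgeR called 0.0174% of genes, and 1 of the 3 transporters, Slc17a6, was among them, which is how the group came to be proposed. Because this contrast led to the choice of the group, nothing is read from these counts.

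**Figure D1:**
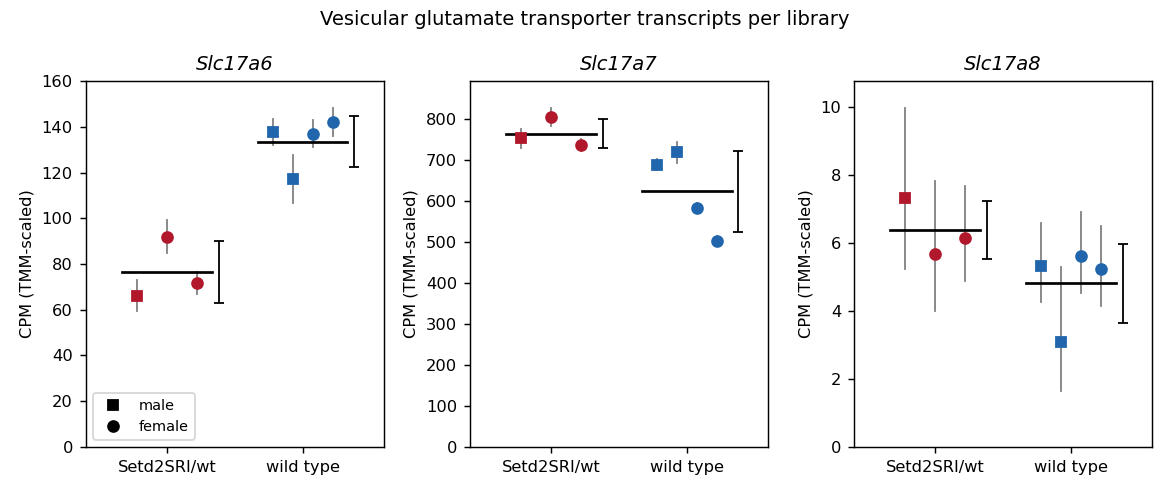
CPM of Slc17a6, Slc17a7 and Slc17a8 in each library, scaled by TMM, with Setd2SRI/wt on the left and wild type on the right of each panel. Squares are males, circles females, grey lines exact Poisson 95% intervals, black lines group means and the capped bars beside them 1 SD; Slc17a6 lies between 66.0 and 91.8 CPM in Setd2SRI/wt brains and between 117.1 and 142.1 CPM in wild-type brains.

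Within each library, the balance between the transporters was tilted further to Slc17a7 in the mutants. The ratio of Slc17a6 to Slc17a7 per kb was 0.0876 in the mutant male and 0.114 and 0.0972 in mutant females 1 and 2. It was 0.1996 and 0.163 in wild-type males 1 and 2 and 0.235 and 0.283 in wild-type females 1 and 2. The highest Setd2SRI/wt ratio was thus below the lowest wild-type ratio, that of wild-type male 2, and the wild-type libraries spread more widely. The mean log2 ratio was -3.34 ± 0.19 in Setd2SRI/wt brains (SD, n = 3) and -2.21 ± 0.34 in wild-type brains (SD, n = 4). This ratio needs no scaling between libraries.

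Slc17a6 made up 8.97 ± 1.11% of the summed level per kb of the 3 genes in Setd2SRI/wt brains (SD, n = 3) and 17.8 ± 3.36% in wild-type brains (SD, n = 4). Slc17a7 made up 90.2 ± 0.965% in Setd2SRI/wt brains and 81.5 ± 3.57% in wild-type brains. The share of Slc17a8 overlapped, with 0.717% to 1.01% in Setd2SRI/wt brains and 0.42% to 0.919% in wild-type brains. The sum itself also overlapped, at 150.9 to 167.3 CPM per kb in Setd2SRI/wt brains and 120.5 to 155.5 CPM per kb in wild-type brains. The ratio of Slc17a6 to Slc17a8 per kb was 7.89 to 14.2 in Setd2SRI/wt brains and 21.3 to 33.2 in wild-type brains, and that of Slc17a7 to Slc17a8 was 90.1 to 124.3 and 84.1 to 203.7 in Setd2SRI/wt and wild-type brains, with overlap. Against Slc32a1, which encodes the vesicular transporter of GABA and glycine, Slc17a6 per kb stood at a ratio of 0.507 ± 0.102 in Setd2SRI/wt brains (SD, n = 3) and 0.791 ± 0.0321 in wild-type brains (SD, n = 4). The ratio of Slc17a7 to Slc32a1 overlapped, at 4.35 to 6.31 in Setd2SRI/wt brains and 2.81 to 4.58 in wild-type brains.

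**Figure D2:**
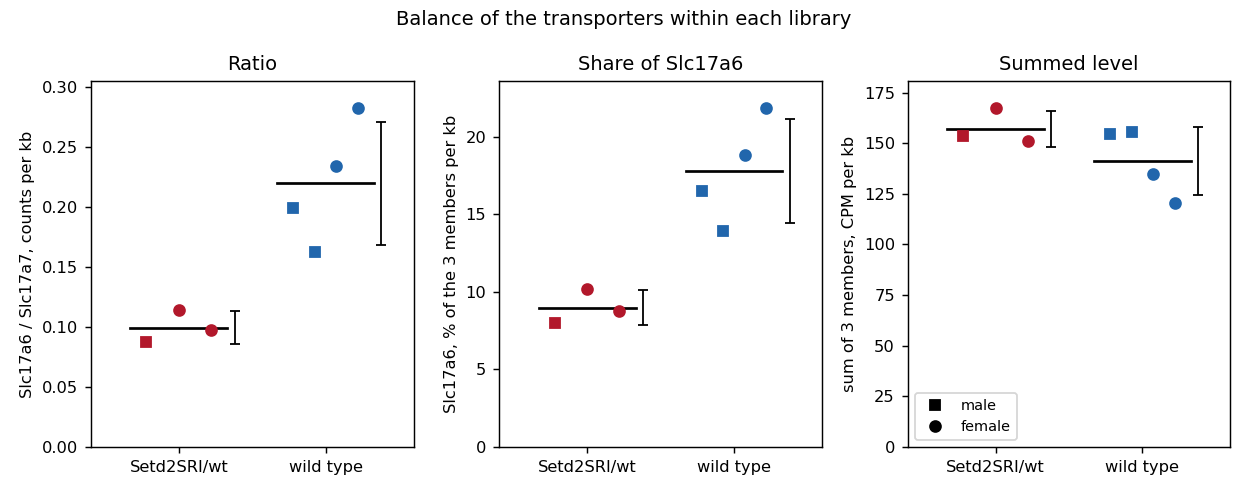
From left to right, the ratio of Slc17a6 to Slc17a7 in counts per kb, the share of Slc17a6 in the summed level per kb of the 3 genes, in percent, and that sum in CPM per kb, for each library. Setd2SRI/wt is on the left and wild type on the right, squares are males, circles females, black lines means and capped bars 1 SD; the ratio is 0.0876 to 0.114 in Setd2SRI/wt brains and 0.163 to 0.283 in wild-type brains, while the sums overlap.

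Sex was not used in choosing the genes and could be tested in the same model. Males over females, Slc17a6 had a log2 fold change of -0.19 ± 0.11 (SE), Slc17a7 one of 0.21 ± 0.11 (SE) and Slc17a8 one of -0.04 ± 0.22 (SE), each with an adjusted p of 0.999 in edgeR. Among all genes 0.0463% were called, and 0 of the 3 transporters. Slc17a7 was at 752 CPM in the Setd2SRI/wt male and 769.5 CPM on average in the 2 Setd2SRI/wt females, and it averaged 703 CPM in the 2 wild-type males and 542.5 CPM in the 2 wild-type females. The test of whether the genotype difference itself differed between the sexes gave adjusted p-values of 0.998 in edgeR for all 3 genes. Its estimate, males over females, was -0.18 ± 0.24 (SE) for Slc17a6, -0.41 ± 0.21 (SE) for Slc17a7 and 0.55 ± 0.46 (SE) for Slc17a8. For that interaction edgeR called 0% of 18269 genes, 632 had an unadjusted p under 0.05, and DESeq2 and limma-voom called 2 and 0 genes. With a single Setd2SRI/wt male, differences of this size between the sexes are poorly determined.

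Most of the other SLC17 genes were at or near 0 in these brains. Of 6 other SLC17 genes, Slc17a5, which encodes the lysosomal sialic acid transporter sialin, was the 1 gene that passed the filter, with 21.2 ± 4.73 CPM in Setd2SRI/wt brains (SD, n = 3) and 20.5 ± 1.84 CPM in wild-type brains (SD, n = 4). Its log2 fold change was 0.03 ± 0.15 (SE, adjusted p = 0.979 in edgeR). Slc17a9, the vesicular nucleotide transporter, averaged 0.589 CPM in Setd2SRI/wt brains and 0.35 CPM in wild-type brains and was not tested. Slc17a1 and Slc17a2, transporters known from the kidney and liver, averaged at most 0.075 CPM in either genotype, and Slc17a3 and Slc17a4 had no count in any library.

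Among 10 other vesicular transporters and vesicle proteins, 8 were tested and 0 were called in either direction. Over all genes 0.0174% were called, so 0 called in a short list, here and below, says little about its members. The median log2 fold change was -0.13, against 0.0066 over all tested genes. Slc18a2, which loads monoamines into vesicles, had 10.8 ± 0.599 CPM in Setd2SRI/wt brains (SD, n = 3) and 25.9 ± 9.10 CPM in wild-type brains (SD, n = 4), and its log2 fold change was -1.20 ± 0.24 (SE; adjusted p of 0.112 in edgeR). The vesicle protein gene Sv2c had 63.2 ± 2.24 CPM in Setd2SRI/wt brains and 85.4 ± 8.09 CPM in wild-type brains (log2 fold change -0.41 ± 0.10, SE, adjusted p = 0.175). Slc30a3, which encodes the zinc transporter of glutamatergic vesicles in the forebrain, had 68.2 ± 9.57 CPM in Setd2SRI/wt brains and 54.1 ± 10.1 CPM in wild-type brains (log2 fold change 0.41 ± 0.10, SE, adjusted p = 0.192). Slc32a1 ranged from 60.4 to 95.95 CPM in Setd2SRI/wt brains and from 81.4 to 92.7 CPM in wild-type brains, and its log2 fold change was -0.14 ± 0.13 (SE; adjusted p of 0.853). Exons of Slc18a2 and Slc32a1 overlap those of another annotated gene, so their counts are uncertain.

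No gene of the machinery that powers and feeds the transporters was called between the genotypes, where 0.0174% of all genes were called. Of 18 genes of the vesicular proton pump and its partners, 0 were called and 0 had an unadjusted p under 0.05, against 8.95% of all genes. Their log2 fold changes ran from -0.08 to 0.19 with a median of 0.02. The 3 of smallest p were Atp6v0b (0.19 ± 0.11, SE), Atp6v1e1 (0.15 ± 0.11, SE) and Atp6v1d (0.14 ± 0.11, SE), which encode subunits of the pump, with adjusted p-values of 0.687, 0.78 and 0.80 in edgeR. Exons of Atp6v0b and Atp6v1e1 overlap those of another gene.

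Of 19 genes for the supply and uptake of glutamate, 0 were called, and the median log2 fold change was -0.02. At an unadjusted p under 0.05 in edgeR, 1 was lower and 0 were higher in Setd2SRI/wt brains, against 5.11% and 3.84% of all genes. Slc38a1, a glutamine transporter of neurons, had the smallest p, with 221 ± 25.4 CPM in Setd2SRI/wt brains (SD, n = 3) and 267 ± 9.16 CPM in wild-type brains (SD, n = 4), and its log2 fold change was -0.29 ± 0.10 (SE; adjusted p of 0.365 in edgeR). The mitochondrial glutamate carrier gene Slc25a22 had a log2 fold change of 0.17 ± 0.10 (SE), with an adjusted p of 0.684, and Slc1a6, a glutamate uptake transporter of Purkinje cells, one of -0.31 ± 0.20 (SE, adjusted p = 0.723). An adjusted p above the threshold does not show that the levels were equal.

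Markers of the regions in which the transporters are used are given beside them. The subcortical excitatory list had 18 tested genes of 23, and 0 were called. Of these 18 genes, 17 had a negative and 1 a positive log2 fold change, with a median of -0.93, and 12 had an unadjusted p under 0.05 and lower values in Setd2SRI/wt brains, against 5.11% of all genes (8.95% in either direction). The list summed to 185.7 CPM in the mutant male and to 252.4 and 166.5 CPM in mutant females 1 and 2, against 261.4, 256.2, 277.8 and 288.9 CPM in wild-type males 1 and 2 and wild-type females 1 and 2. All Setd2SRI/wt sums lay below all wild-type sums, that of mutant female 1 by little. The most abundant genes of the list were Calb2, which encodes the calcium-binding protein calretinin, with 42.4 ± 21.1 CPM in Setd2SRI/wt brains and 76.8 ± 14.1 CPM in wild-type brains, the guidance receptor gene Nrp2, with 44.7 ± 9.57 and 51.8 ± 8.14 CPM in Setd2SRI/wt and wild-type brains, and the tachykinin gene Tac1, with 52.5 ± 8.15 and 40.5 ± 10.3 CPM in Setd2SRI/wt and wild-type brains (SD, n = 3 and 4). Evx1 and Tlx3 were near the floor and were not tested. Neither had a count in any Setd2SRI/wt library, and they averaged 0.159 and 0.11 CPM in wild type. Tlx3 had counts in wild-type male 1 alone (0.438 CPM), the library with Hox transcripts. Evx1 was highest there (0.313 CPM) and had no count in wild-type male 2. These lists were chosen with earlier results of these data known and are no independent evidence of a direction.

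Slc17a6 was 35.5% to 43.0% of the subcortical marker sum in Setd2SRI/wt brains and 45.7% to 52.6% in wild-type brains, without overlap. That sum rested mostly on Calb2, Nrp2 and Tac1, with log2 fold changes of -0.87, -0.26 and 0.36. The list median was -0.93, against -0.84 for Slc17a6, so the share depends on which genes carry the sum. Slc17a6 was 0.91% to 1.36% of the summed neuron markers in Setd2SRI/wt brains and 1.72% to 2.25% in wild-type brains. Without wild-type male 1, the library with Hox transcripts, the log2 fold change was -0.79. The part of the region markers in the Slc17a6 result was not tested.

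The cortical excitatory list of 16 genes, all tested, had 0 called genes, 16 positive log2 fold changes and a median of 0.32. Of these, 10 had an unadjusted p under 0.05 and higher values in Setd2SRI/wt brains, against 3.84% of all genes. The list summed to 4582, 4492 and 4649 CPM in the Setd2SRI/wt male and females 1 and 2, against 3603, 3591, 3597 and 3160 CPM in wild-type males 1 and 2 and wild-type females 1 and 2. The sum rested mostly on Camk2a, a synaptic kinase gene, with 2511 ± 69.9 CPM in Setd2SRI/wt brains and 1956 ± 93.3 CPM in wild-type brains, and on Nrgn, which encodes neurogranin, with 1137 ± 41.7 and 771 ± 110.1 CPM in Setd2SRI/wt and wild-type brains (SD, n = 3 and 4). Nrn1, which encodes neuritin, had 145.0 ± 6.44 and 120.0 ± 21.6 CPM in Setd2SRI/wt and wild-type brains. Slc17a7 was 15.8% to 17.9% of this sum in Setd2SRI/wt brains and 15.9% to 20.0% in wild-type brains, with overlap. The part of these markers in the Slc17a7 result was not tested.

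**Figure D3:**
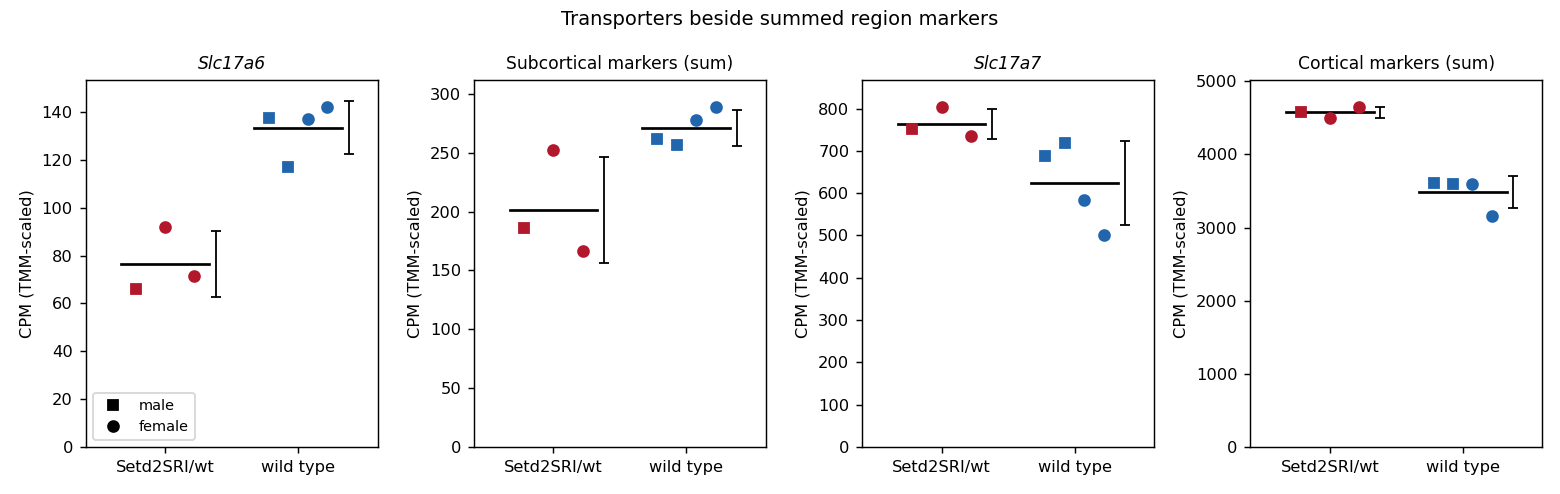
CPM of Slc17a6, of the summed subcortical excitatory markers, of Slc17a7 and of the summed cortical excitatory markers in each library, with Setd2SRI/wt on the left and wild type on the right of each panel. The subcortical sum rests mostly on Calb2, Nrp2 and Tac1, whose cells of origin were not tested. Squares are males, circles females, black lines means and capped bars 1 SD; Setd2SRI/wt brains are lower than wild type for Slc17a6 and the subcortical sum (166.5 to 252.4 against 256.2 to 288.9 CPM) and higher for Slc17a7 and the cortical sum (4492 to 4649 against 3160 to 3603 CPM).

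Of 10 genes of the cells known for Slc17a8, 9 were tested and 0 were called, with a median log2 fold change of -0.02. Of the 9, 1 was higher (Cck) and 3 were lower (Slc6a4, Slc5a7 and Slc18a3) in Setd2SRI/wt brains at an unadjusted p under 0.05, against 3.84% and 5.11% of all genes. Chat, a cholinergic gene like Slc5a7 and Slc18a3, had 5.73 CPM in Setd2SRI/wt brains and 5.78 CPM in wild-type brains. Its log2 fold change was -0.02 ± 0.21 (SE, adjusted p = 0.993 in edgeR). The list summed to 411.0 to 500.9 CPM in Setd2SRI/wt brains and 347.7 to 404.8 CPM in wild-type brains, without overlap. That sum rested mostly on Cck and Cnr1, with log2 fold changes of 0.47 and 0.18. Of the 9 tested genes, 4 had a positive and 5 a negative log2 fold change, so the sum does not describe the list as a whole. The most abundant were the cannabinoid receptor gene Cnr1, with 186 ± 15.5 CPM in Setd2SRI/wt brains and 164 ± 18.7 CPM in wild-type brains, the cholecystokinin gene Cck, with 196 ± 33.9 and 146 ± 21.4 CPM in Setd2SRI/wt and wild-type brains, and the otoferlin gene Otof, with 47.0 ± 6.95 and 41.0 ± 5.55 CPM in Setd2SRI/wt and wild-type brains (SD, n = 3 and 4). The 3 serotonin genes of this list were low, Slc6a4, which encodes the serotonin transporter, at 0.165 ± 0.016 CPM in Setd2SRI/wt brains (SD, n = 3) and 1.03 ± 0.759 CPM in wild-type brains (SD, n = 4), Tph2 at 1.25 CPM in Setd2SRI/wt brains and 2.64 CPM in wild-type brains and Fev at 0.102 and 0.24 CPM in Setd2SRI/wt and wild-type brains. Slc17a8 was 1.24% to 1.497% of the list's sum in Setd2SRI/wt brains and 0.777% to 1.503% in wild-type brains, with overlap.

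The inhibitory list of 10 genes had 0 called genes and a median log2 fold change of -0.06. It summed to 1237 to 1285 CPM in Setd2SRI/wt brains and 1294 to 1489 CPM in wild-type brains. These sums did not overlap, but the closest ones lay near each other. Gene by gene, 0 of the 10 were without overlap, against 7.91% of all genes, and 4 log2 fold changes were positive and 6 negative. At an unadjusted p under 0.05 in edgeR, 1 gene was higher and 1 lower in Setd2SRI/wt brains, against 3.84% and 5.11% of all genes. Gad1 and Gad2, which encode the enzymes of GABA synthesis, had 422 ± 37.6 and 285 ± 18.3 CPM in Setd2SRI/wt brains (SD, n = 3) and 437 ± 62.8 and 333 ± 28.4 CPM in wild-type brains (SD, n = 4).

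**Figure D4:**
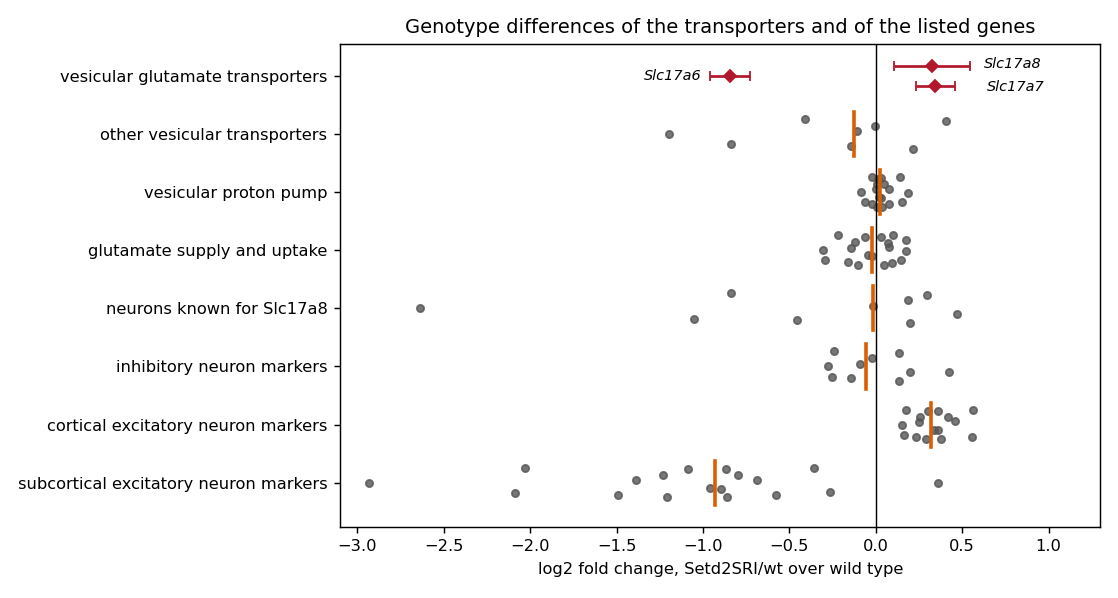
Log2 fold change of Setd2SRI/wt over wild type (x axis) for the 3 transporters, with SE bars in red, and for the tested genes of each list (grey points, with the list median as an orange line). Slc17a6 lies at -0.84 among the values of the subcortical markers (median -0.93), Slc17a7 and Slc17a8 lie at 0.35 and 0.32, the cortical markers have a median of 0.32, and the proton pump genes stay between -0.08 and 0.19.

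For each transporter, the 5 genes with the most similar profile were taken from 15858 genes with a mean of at least 1 CPM, by the root mean square difference of log2 CPM after each gene was centred on its mean over the 7 libraries. Around Slc17a6, whose own profile deviated from its mean by 0.431 (root mean square, log2), the nearest was the homeobox gene Gbx1 with a difference of 0.0858. It had 1.081 CPM in Setd2SRI/wt brains and 1.95 CPM in wild-type brains. The protocadherin gene Pcdhgb6 (0.118), the carnitine synthesis gene Bbox1 (0.12), the ciliary dynein gene Dnaic2 (0.127) and Slc10a4 (0.137), which encodes a vesicle protein of monoamine and cholinergic neurons, followed. Pcdhgb6 shares exons with other protocadherin genes, so its count is uncertain.

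Around Slc17a7, with an own deviation of 0.22, the nearest included the Ras effector gene Rin1 at 0.027, the synaptic protein gene C1ql3 at 0.0523, the cytochrome oxidase subunit gene Cox6c at 0.0637 and the centromere protein gene Mis18a at 0.0703. Rin1 had 70.6 CPM in Setd2SRI/wt brains and 58.0 CPM in wild-type brains. Exons of C1ql3 and Cox6c overlap those of other genes. Around Slc17a8, with an own deviation of 0.342, the nearest were Gm48408 at 0.0609, the lysosomal channel gene Tpcn2 at 0.0936, the kinase gene Ripk2 at 0.0972, the phosphatase gene Ptpn6 at 0.102 and the calsequestrin gene Casq2 at 0.103. These profiles carry the genotype difference: with each genotype centred on its own mean, 0, 2 and 1 of the 5 genes were again among the nearest for Slc17a6, Slc17a7 and Slc17a8. At the depth of Slc17a8 its profile also carries much counting error.

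**Figure D5:**
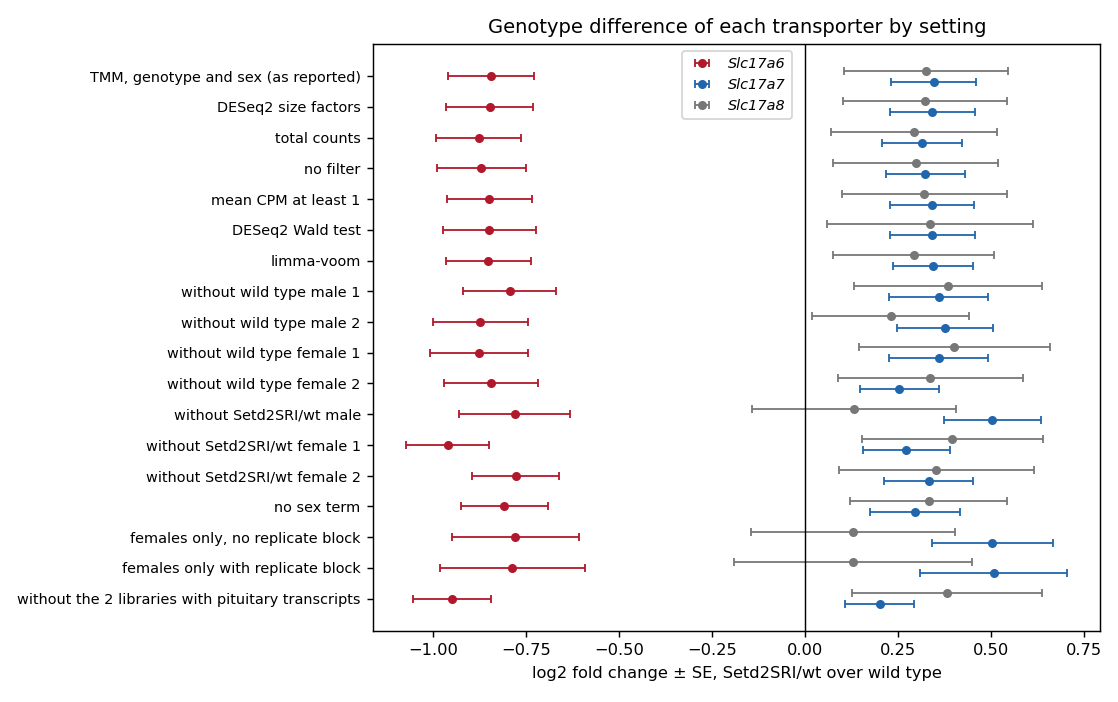
Log2 fold change of Setd2SRI/wt over wild type with its SE (x axis) for Slc17a6, Slc17a7 and Slc17a8 under the reported model and 17 alternatives (rows). Slc17a6 stays between -0.96 and -0.78, Slc17a7 between 0.20 and 0.51 and Slc17a8 between 0.13 and 0.40, and the values of Slc17a8 have the widest SE.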

How the data were processed

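RNA was taken from 7 whole brains. Per the labels' protocols, 100 ng of total RNA went into a stranded kit with rRNA depletion, and read pairs of 76 bases were sequenced. The authors deposited raw gene counts for 55536 genes. Per the submitters' processing notes, FastQC, Trim Galore, HISAT2, featureCounts and edgeR were used with mm10. Neither versions nor the strand setting are given in the sources used here. In the table, the column of the Setd2SRI/wt male differed slightly from its label and was matched as the 1 mutant male.

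Genes were filtered with filterByExpr (minimum count 10), scaled by TMM and fitted to genotype plus sex (with a product term for the interaction) by edgeR 4.0.16 under R 4.3.3, using its two-sided quasi-likelihood F-test. P-values were adjusted by Benjamini-Hochberg over all tested genes and called under 0.05. CPM were scaled by TMM. The SE is the absolute log2 fold change over the square root of F and so restates the test. Levels per kb used the union of GENCODE M21 exons, whose identifiers and symbols matched all 55536 genes. Ratios within libraries were tested with scipy 1.17.1. Coding sequences are those of GENCODE M21, aligned with Biopython 1.88. The model was checked on simulated data. Those counts were drawn with the spread fitted here, so the check cannot show whether the model's assumptions hold for the real counts.

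Members and lists were chosen with earlier results of these data known. The genes named were, per pathway list, the 3 of smallest p and those needed to describe it, per list of cortical, subcortical, inhibitory and Slc17a8 neurons the 3 most abundant, and the 5 nearest profiles. Slc6a4, Slc5a7, Slc18a3, Chat, Omp, Stoml3, Gnal, Tph2, Fev, Evx1, Tlx3, Gfap, Aqp4, Fabp7, Tubb3, Slc17a1 to Slc17a4 and Slc17a9 were added after their values were seen. The other marker lists are otherwise given as sums. Of the genes this rule names, 2 are not reported here. Alternatives were DESeq2 size factors, total counts, no filter, a filter at mean CPM 1, DESeq2 1.42.0 (Wald test), limma-voom (limma 3.58.1), each library left out, other covariates or samples, a replicate block and other lengths.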

Additional observations from a re-analysis of the deposited data

Results flagged for a closer look

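In 21 sets of wild-type values, the 4 libraries were searched for one that stood far from the other three by Dixon's 95% criterion, from the gap to its neighbour as a share of the whole range. Chance flags about 1 in 20 independent groups of normal values. These sets share the same 4 libraries and some genes, so the 6 that were flagged cannot be set against that rate. Slc17a8 was low in wild-type male 2, at 3.09 CPM (13 counts, gap 0.847 of the range), the shallowest library.

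The other flagged values were sums over lists. Wild-type female 2 was low for the cortical excitatory markers, at 3160 CPM (0.974), for the genes of cells known for Slc17a8, at 347.7 CPM (0.867), and for the proton pump genes, at 4149 CPM (0.832). It was high for the pituitary markers, at 30.1 CPM (0.927). Wild-type male 1 was high for the Hox genes, at 41.3 CPM (0.989). The CPM of Slc17a6 and Slc17a7 and the ratios between the transporters were not flagged.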

How the results depend on the processing

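The genotype values of the 3 transporters, which chose the group, are given as a description over 17 alternatives: log2 fold changes of -0.96 to -0.78 for Slc17a6, 0.20 to 0.51 for Slc17a7 and 0.13 to 0.40 for Slc17a8. Slc17a6 was called in 10 of these alternatives and not in 7, among them no sex term and females alone without a replicate block. The number of genes called for genotype, 3 in the reported model, was 1 with total counts, 331 with no filter, 1 with a mean CPM of at least 1, 64 with DESeq2, 1 with limma-voom, 0 with no sex term (1393 at an unadjusted p under 0.05), 1 in females alone and 57 without the 2 libraries with pituitary transcripts, an alternative chosen after seeing the data. Leaving out single libraries gave 0 to 110: 0 without wild-type male 2 (1240 at an unadjusted p under 0.05) or wild-type female 2 (1282), 2 without wild-type male 1, 110 without wild-type female 1, 11 without mutant female 1 and 1 without either of the other mutants. For sex, 8 genes in the reported model became 136 with no filter, 15 in wild type alone and 8 to 20 with single libraries left out, the most without wild-type female 1 (20) and Setd2SRI/wt female 2 (14). For the interaction, 0 became 21 with no filter, 2 with DESeq2 and 1 to 4 with single libraries left out.

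The replicate numbers of the labels are not stated to pair animals, and same-numbered females deviated with a correlation of -0.0576 across genotypes, same-numbered wild types with -0.0087 across sexes. With the replicate number as a block, 80 genes were called for genotype in females and 39 for sex in wild type, and the log2 fold changes were -0.79 for Slc17a6, 0.51 for Slc17a7 and 0.13 for Slc17a8.

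The ratios between transporters kept their direction throughout. In wild type alone the mean log2 ratios were -2.21 for Slc17a6 over Slc17a7, 4.63 for Slc17a6 over Slc17a8 and 6.85 for Slc17a7 over Slc17a8, with an exact permutation p of 0.125 each, the smallest that 4 libraries allow. The sex estimate of Slc17a8 turned to 0.127 without wild-type male 2 and 0.041 without wild-type female 1, within -0.25 to 0.13 over single libraries left out, and the interaction of Slc17a6 to 0.0015 without Setd2SRI/wt female 1, within -0.35 to 0.0015; the cause was not tested. Over 13 alternatives the medians of the subcortical list (-1.19 to -0.75) and the cortical list (0.26 to 0.41) kept their sign, and those of the proton pump, glutamate supply, Slc17a8 neuron and inhibitory lists changed sign in 3, 5, 8 and 2. Depth limits Slc17a8 most, with 13 to 90 counts per library.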
